A study of Danio rerio with 10 samples.

Results

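Germ plasm is a maternally supplied store of RNA and protein in the zebrafish egg, and the cells that inherit it become the primordial germ cells, the founders of eggs and sperm. Its RNAs and proteins are held in granules built around scaffold proteins, and many of them act on RNA themselves, as helicases, translational regulators or binders of piwi-interacting RNAs (piRNAs), small RNAs that silence transposons. Rbpms2 is an RNA-binding protein that in zebrafish oocytes binds RNA of the germ plasm organiser Bucky ball.

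The genes described here were the 10 germ plasm and primordial germ cell genes whose symbols were given for this purpose, ddx4, nanos3, dnd1, dazl, buc, ca15b, piwil1, piwil2, tdrd1 and tdrd6. All 10 symbols were found, on 10 of the 32266 gene lines of the deposited table, each line a protein-coding gene. They were measured in polyadenylated RNA of whole zebrafish embryos (Danio rerio) at 33 hours post fertilization. The double mutants carried rbpms2a-/-; rbpms2b-/- and were picked out by eye, and the control siblings, labelled wt, came from the same sorting. There were 5 libraries to a group, which carry the numbers 1, 2, 3, 4 and 6 in both, and every library was made from a pool of 10 embryos. The labels give neither the genotypes of the parents and of single siblings nor the meaning of the numbers, so that p-values measure only the spread between these pools.

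Totals ran from 21.5 to 36.0 M counts per library (M, 1000000 counts), lowest in control 6. Levels are given as CPM (counts per 1000000, after scaling between libraries by TMM, trimmed mean of M-values). Of 20802 genes tested with edgeR's quasi-likelihood test, 1 passed a Benjamini-Hochberg adjusted p of 0.05 (0.00481%), and 53 did (0.255%) with the replicate number as a block. The targeted gene rbpms2a was at 3.17 ± 0.585 CPM in double mutants and 5.25 ± 1.09 CPM in control siblings (SD, n = 5 each), with ranges that did not overlap, and with the block its adjusted edgeR p was 0.00741 (0.0693 without number 1), against 1.00 without it. Transcripts of rbpms2b were at 15.4 ± 4.63 CPM in double mutants and 14.2 ± 3.71 CPM in control siblings (SD, n = 5 each), which checks nothing about the labels since a mutant gene can still be transcribed. Of 7 marker genes of the embryo's tissues (neurons, skeletal muscle, heart, red cells, epidermis, lens and endothelium), all were counted in every library and none passed the adjusted threshold in edgeR with or without the block.

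The germ line genes were rare transcripts. Together they held between 132 and 291 counts in a double mutant library and between 127 and 293 in a control sibling library, 1848 counts in all. Their summed level was 5.63 ± 1.62 CPM in double mutants and 5.75 ± 1.46 CPM in control siblings (SD, n = 5 each). The deposited counts of all 10 genes were whole numbers in all 10 libraries, at a tolerance of 1e-06. The 4 defining germ cell genes ddx4, nanos3, dnd1 and dazl had at least 1 count in every library. For testing, a gene needed a CPM equal to 10 counts in a library of median depth (0.295 CPM) in at least 5 libraries. By this filter 6 of the 10 genes were tested (ddx4, nanos3, dazl, piwil1, tdrd1 and tdrd6). The other 4 (dnd1, buc, ca15b and piwil2) were too low to read. Dnd1 missed narrowly, with 4 libraries at the cutoff, while dazl passed with 5.

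Of the 6 tested genes, 0 passed the adjusted threshold in edgeR, where 0.00481% of all tested genes did, and 0 with the block (0.255% of all genes). None had an unadjusted edgeR p under 0.05, with or without the block, against 1.95% and 10.5% of all tested genes. DESeq2 and limma-trend gave 0 as well. Limma-voom gave 1, tdrd1 (unadjusted p 0.0467), among 418 of all 20802 tested genes. EdgeR without mutant 1 also gave tdrd1 (unadjusted p 0.0411), among 435 of 20983 genes. The median log2 fold change of the 6 tested genes was 0.033, with 4 above 0 and 2 below. Over all tested genes the median was 0.0022. The 6 estimates lay between -0.52 and 0.30.

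**Figure D1:**
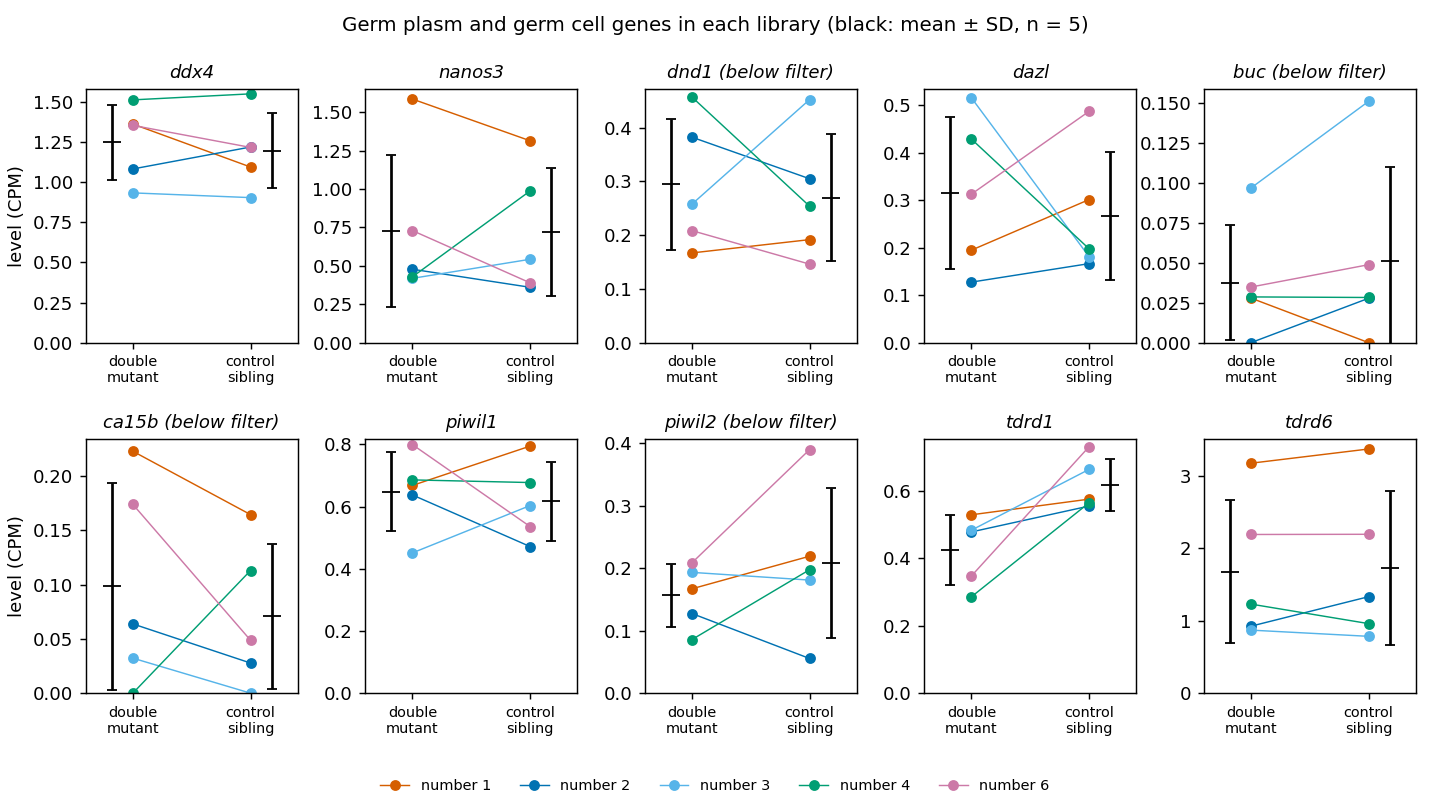
Level in CPM (vertical axes, starting at 0) of each of the 10 genes in every library, double mutants on the left and control siblings on the right of each panel, with libraries of the same replicate number joined by a line. Black bars are means ± SD over 5 libraries, cut at 0 where they would run below it; the groups separate in the panel of tdrd1, and replicate number 1 lies highest in both groups for nanos3, tdrd6 and ca15b.

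Ddx4 codes for Vasa, the RNA helicase of germ granules that serves as the standard marker of germ cells. Its level was 1.36, 1.08, 0.934, 1.51 and 1.36 CPM in double mutants 1, 2, 3, 4 and 6, against 1.096, 1.22, 0.905, 1.55 and 1.22 CPM in the control siblings of the same numbers. Number 4 was highest and number 3 lowest in both groups, and the groups overlapped over nearly their whole ranges. The means were 1.25 ± 0.235 and 1.20 ± 0.236 CPM (SD, n = 5 each), a log2 fold change of 0.063 (SE 0.207, unadjusted edgeR p 0.766, adjusted p 1.00). The 95% interval of the ratio ran from 0.765 to 1.43, so a change within these bounds in either direction remains possible. The sign turned without mutant 4 (-0.016) and without control 3 (-0.032).

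Nanos3 codes for an RNA-binding repressor of translation that keeps primordial germ cells alive. It was at 1.59, 0.478, 0.419, 0.429 and 0.730 CPM in double mutants 1, 2, 3, 4 and 6, against 1.31, 0.361, 0.543, 0.988 and 0.390 CPM in control siblings. Library 1 was the highest of both groups, and the other libraries of the groups were intermixed. The means were 0.728 ± 0.496 and 0.719 ± 0.417 CPM (SD, n = 5 each), and the log2 fold change was 0.0031 (SE 0.466, unadjusted edgeR p 0.995, adjusted p 1.00). The 95% interval of its ratio ran from 0.497 to 2.02. On the log2 scale that interval was -1.009 to 1.015, and with the block it was -0.643 to 0.570 (SE 0.287). Single libraries set the sign of the estimate, which was -0.52 without mutant 1, -0.17 without control 2, -0.094 without control 3 and -0.13 without control 6, and -0.036 with the block. Leaving out a single library breaks a same-numbered pair. With the block and without both libraries of number 1, 2, 3, 4 or 6 it was -0.17, -0.12, 0.029, 0.28 and -0.20.

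Dazl, an RNA-binding protein that promotes translation of germ cell messages, rested on few counts, 4 to 16 in a double mutant library and 6 to 11 in a control sibling library. It was at 0.195, 0.127, 0.515, 0.429 and 0.313 CPM in double mutants 1, 2, 3, 4 and 6, against 0.301, 0.166, 0.181, 0.198 and 0.487 CPM in control siblings. Mutants 3 and 4 and control 6 were high, and the ranges overlapped. The log2 fold change of 0.30 (SE 0.445, unadjusted edgeR p 0.504, adjusted p 1.00) had a 95% interval of the ratio from 0.633 to 2.42. It depended on single libraries, being 0.060 without mutant 3, 0.16 without mutant 4, 0.17 without control 2, 0.18 without control 3, 0.49 without mutant 2 and 0.56 without control 6. With the block and without number 3 its sign turned (-0.077).

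Dnd1, the Dead end protein that shields germ cell messages from microRNAs and is needed for germ cell migration and survival in zebrafish, had 6, 12, 8, 16 and 6 counts in double mutants 1, 2, 3, 4 and 6, against 7, 11, 15, 9 and 3 counts in control siblings. Its level was 0.295 ± 0.122 CPM in double mutants and 0.270 ± 0.119 CPM in control siblings (SD, n = 5 each). Neither group stood above the other. Fitted without the filter, its log2 fold change was 0.10 (SE 0.418, unadjusted edgeR p 0.805).

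Buc codes for Bucky ball, the organiser of the Balbiani body, the oocyte structure in which germ plasm gathers. It had 1, 0, 3, 1 and 1 counts in double mutants 1, 2, 3, 4 and 6, against 0, 1, 5, 1 and 1 in control siblings. In both groups library 3 was highest and 1 library was at 0, where a count of 0 allows at most 3 counts, or 0.0955 CPM in mutant 2 and 0.0834 CPM in control 1. Summed over the groups these were 6 counts in double mutants and 8 in control siblings, a ratio of 0.748 with an exact interval of 0.214 to 2.46 that covers counting error only. No change of buc could be read at this depth.

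Ca15b, a carbonic anhydrase gene whose RNA is carried by zebrafish primordial germ cells, had 8, 2, 1, 0 and 5 counts in double mutants 1, 2, 3, 4 and 6, against 6, 1, 0, 4 and 1 in control siblings. Library 1 had the most counts in both groups, and mutant 4 and control 3 were at 0, which allows up to 0.0856 and 0.0915 CPM. The sums of 16 and 12 counts gave a ratio of 1.33 with an exact counting interval of 0.590 to 3.08.

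The Piwi proteins bind piRNAs, and piwil1 and piwil2 are their genes in zebrafish. Piwil1 was at 0.668, 0.637, 0.451, 0.686 and 0.799 CPM in double mutants 1, 2, 3, 4 and 6, against 0.794, 0.471, 0.603, 0.677 and 0.536 CPM in control siblings. The groups covered almost the same range. The log2 fold change of piwil1 was 0.064 (SE 0.241, unadjusted edgeR p 0.793, adjusted p 1.00), with a 95% interval of the ratio from 0.728 to 1.502. Its sign turned on log2 of the deposited FPKM + 1 (-0.023), without mutant 6 (-0.018) and without control 2 (-0.022). Piwil2 had 3 to 6 counts in a double mutant library and 2 to 8 in a control sibling library. Its sums of 25 and 31 counts gave a ratio of 0.804 with an exact counting interval of 0.455 to 1.41.

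Tdrd1 codes for a Tudor-domain protein, a scaffold that docks Piwi proteins in germ granules. It was the gene whose ranges did not overlap, a separation that 0.466% of all tested genes showed and that 0.154% showed with the double mutants lower. Its counts were 19, 15, 15, 10 and 10 in double mutants 1, 2, 3, 4 and 6, against 21, 20, 22, 20 and 15 in control siblings. In CPM these were 0.529, 0.478, 0.483, 0.286 and 0.348 in double mutants, against 0.575, 0.555, 0.663, 0.564 and 0.731 in control siblings. The highest double mutant (0.529 CPM) lay just under the lowest control sibling (0.555 CPM), and mutants 4 and 6 lay farthest below.

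The mean of tdrd1 was 0.425 ± 0.103 CPM in double mutants, 68.7% of the 0.618 ± 0.0766 CPM in control siblings (SD, n = 5 each). The exact permutation test over all 252 assignments gave a two-sided p of 0.00794, the smallest possible, which follows from ranges that do not overlap. That test ignores the replicate numbers; the exact sign-flip test on the 5 same-numbered pairs gave p = 0.0625, the smallest that 5 pairs allow, so it could not reach 0.05. The log2 fold change was -0.52 (SE 0.250, lower in 5 of 5 same-numbered pairs). Its unadjusted p in edgeR was 0.0554 and its adjusted p 1.00, so the difference did not pass the test across all genes. With the block it was -0.52 (SE 0.282, adjusted p 0.530). The ratios of the same-numbered pairs were -0.12, -0.20, -0.44, -0.95 and -1.05 on the log2 scale for numbers 1, 2, 3, 4 and 6. They were close to 0 in number 1 and largest in 4 and 6. Of the list genes described below, celf1, kif5ba and zp3b were also lower in 5 of 5 pairs, and hmgcra and dazap2 were higher in 5 of 5. The share of all tested genes with such agreement was not counted.

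Unadjusted p-values for tdrd1 ran from 0.0411 to 0.197 over 25 alternatives, of which 0 passed after adjustment (lowest adjusted p 0.530). On the deposited FPKM the groups overlapped, with 0.18 to 0.22 FPKM in double mutants and 0.20 to 0.34 FPKM in control siblings, and the log2 fold change was -0.23 on log2(FPKM + 0.1) and -0.065 on log2(FPKM + 1), where the larger offset shrinks differences of low values. In RNA of whole embryos, fewer germ cells and less RNA per germ cell cannot be told apart. Beside the 68.7% of tdrd1, the double mutant means of ddx4, nanos3, dazl, piwil1 and tdrd6 were at 104, 101, 118, 105 and 97.1% of the control sibling means.

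Tdrd6, a Tudor-domain protein that takes part in gathering germ plasm with Bucky ball in zebrafish, had the most counts of the 10 genes, 552 in all. It was at 3.17, 0.924, 0.870, 1.23 and 2.19 CPM in double mutants 1, 2, 3, 4 and 6, against 3.37, 1.33, 0.784, 0.959 and 2.19 CPM in control siblings. Number 1 was highest and number 6 next in both groups, and the groups covered the same range. The means were 1.68 ± 0.990 and 1.73 ± 1.07 CPM (SD, n = 5 each). The log2 fold change was -0.033, with an SE of 0.452 without the block and 0.169 with it (adjusted edgeR p 1.00 and 0.968). The 95% interval on the log2 scale was -1.01 to 0.95 without the block and -0.39 to 0.32 with it. The unblocked sign turned without control 1 (0.38), mutant 3 (0.13), mutant 2 (0.11), mutant 4 (0.063) or control 6 (0.055).

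**Figure D2:**
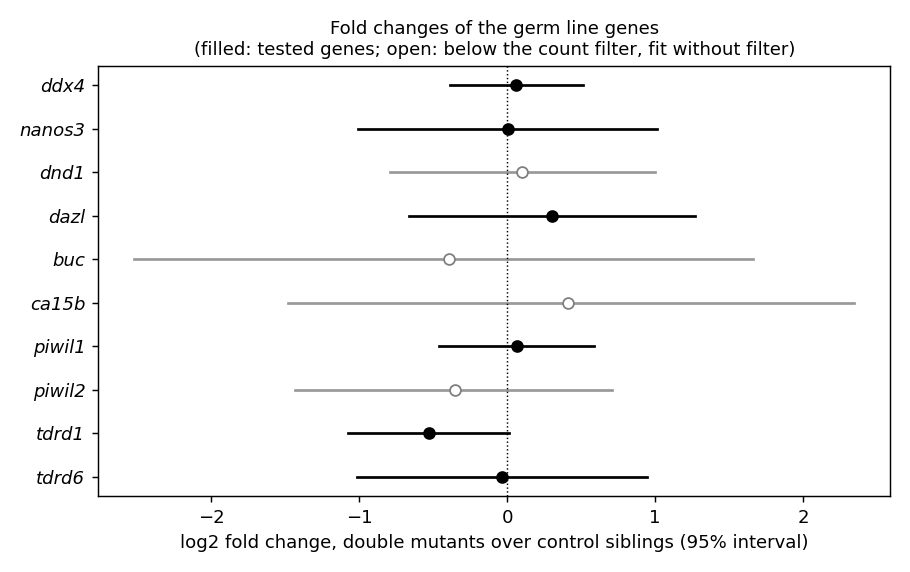
Log2 fold change of double mutants over control siblings (horizontal axis) with its 95% interval for each gene. Filled points are the 6 tested genes and open points the 4 genes too low for the filter, taken from a fit of all genes without one; every interval includes 0, and that of tdrd1 ends at 0.014.

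The spread between libraries set nanos3 and tdrd6 apart from the other tested genes. Spread was expressed as the chi-square statistic of a gene's counts per degree of freedom within a group, for which sampling noise alone gives about 1. Nanos3 had 11.6 in double mutants and 7.69 in control siblings, and tdrd6 had 19.5 and 23.3. Dazl, with few counts, had 2.64 and 1.78. Ddx4 had 1.43 and 1.60, piwil1 had 0.746 and 0.869, and tdrd1 had 0.841 and 0.256. For ddx4, piwil1 and tdrd1 the libraries of a group thus differed by little more than counting error, or less. Over 4287 tested genes with 90 to 600 counts in all, the median was 2.59 in double mutants and 2.36 in control siblings. Of these genes, 3.45% had values at least as large as those of nanos3 in both groups, and 30 of the 4287 as those of tdrd6. At a given relative spread the statistic grows with a gene's count. The 4287 genes were not matched in count to nanos3 (243 in all) or tdrd6 (552 in all).

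Part of this spread lay in replicate number 1. Without number 1, a value computed after the data were seen, nanos3 had 1.26 in double mutants and 4.74 in control siblings, and tdrd6 8.59 and 7.79, beside medians of 2.49 and 2.19 over the same 4287 genes. In control siblings nanos3 was next highest in library 4 (0.988 CPM), and tdrd6 was at 2.19 CPM in library 6 of both groups. Nanos3 in library 1 was 3.50 times the median of the other double mutants and 2.82 times that of the other control siblings, and tdrd6 was 2.95 and 2.94 times. Of the 10 germ line genes, 3 (nanos3, tdrd6 and ca15b) were highest in library 1 of both groups, as were 6.89% of all tested genes. Being at least 2 times the median of the other libraries in both groups held for 2 of the 6 tested genes, nanos3 and tdrd6, and for 0.433% of all tested genes. It held too for ca15b, which was not tested and had 8 and 6 counts in library 1. This pattern was picked out after its values were seen, and the share over all tested genes was not matched in count to these low genes. Of the 4 defining germ cell genes, nanos3 showed this pattern and the others did not. Ddx4 in library 1 was 1.12 times the median of the other double mutants and 0.899 times that of the other control siblings. Dazl was at 0.53 and 1.59 times, and dnd1, too low to read, at 0.522 and 0.686 times. What the numbers stand for is not given, and a part of it in this pattern was not tested.

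**Figure D3:**
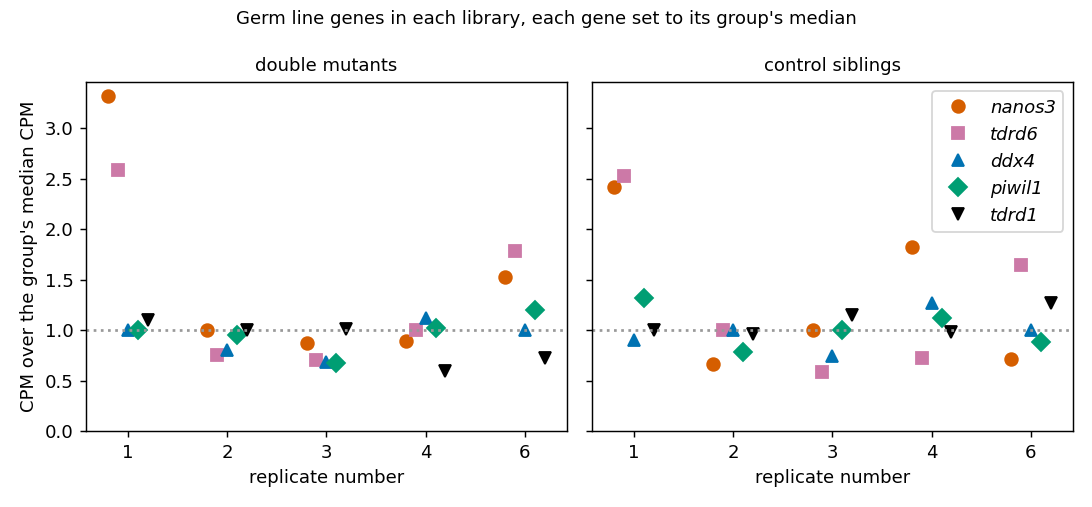
Level of 5 tested genes in each library (replicate number on the horizontal axis) as a multiple of the gene's median CPM in its group (vertical axis, linear), double mutants on the left and control siblings on the right. Nanos3 and tdrd6 stand above 2 in library 1 of both groups, while ddx4, piwil1 and tdrd1 stay below 1.5 in every library. Dazl, also tested, is not shown. It was at 0.487 CPM in control 6, where the median of the control siblings was 0.198 CPM.

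Levels were compared between the genes per length, as counts per 1000 bases of effective length and per 1000000 counts (FPKM, from the deposited counts). In double mutants they ran 0.774 ± 0.538 FPKM for nanos3, 0.523 ± 0.0972 for ddx4, 0.237 ± 0.142 for tdrd6, 0.211 ± 0.0395 for piwil1 and 0.171 ± 0.0870 for dazl (SD, n = 5). Below these came dnd1 (0.147 ± 0.0599), tdrd1 (0.107 ± 0.0270), ca15b (0.0657 ± 0.0640), piwil2 (0.0491 ± 0.0157) and buc (0.0238 ± 0.0228 FPKM). Control siblings had 0.757 ± 0.446 FPKM for nanos3, 0.496 ± 0.0930 for ddx4 and 0.241 ± 0.151 for tdrd6 (SD, n = 5), the same order at the top. Nanos3 and ddx4 differed by less than the SD of nanos3. Ddx4 lay more than 1 SD above tdrd6 in both groups, and in double mutants each neighbour from tdrd6 down to piwil2 lay within 1 SD of the next, by the larger SD of the 2. In control siblings tdrd1 stood next after piwil1, at 0.154 ± 0.0165 FPKM (SD, n = 5).

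The deposited FPKM put several of these genes higher. Averaged over the 10 libraries, the deposited level was 1.05 times the level from counts for nanos3 and 1.102 times for ddx4, but 2.82 times for piwil1, 2.85 times for dazl and 8.45 times for ca15b, where genes with a mean count of at least 100 had a median of 1.01. Ca15b was listed at 0.35 FPKM in mutant 4 and 0.36 FPKM in control 3, which had 0 counts. On the deposited values piwil1 ranked 2nd and ca15b 5th of the 10, against 4th and 9th from counts. Ddx4 ranked 3rd and tdrd6 4th on the deposited values, against 2nd and 3rd from counts. Below nanos3 the order therefore depends on which deposited column is read.

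**Figure D4:**
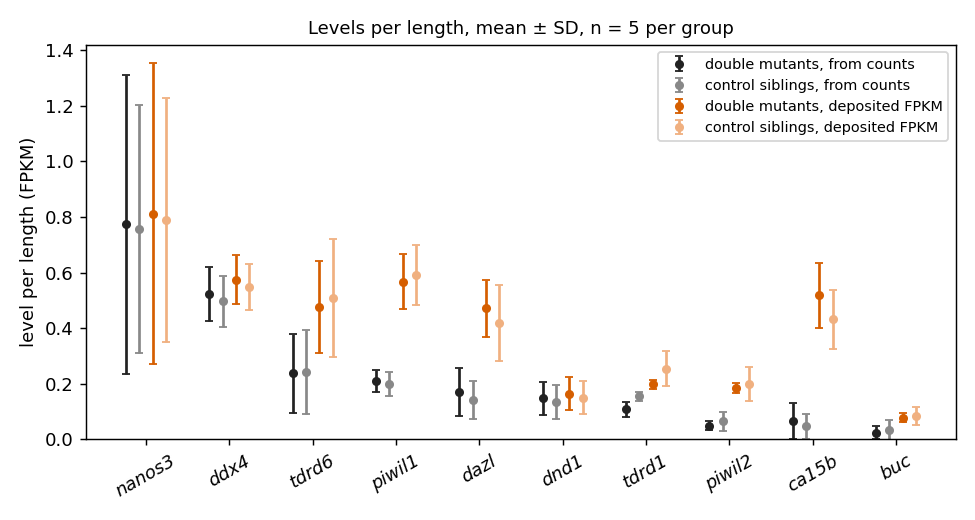
Level per length in FPKM (vertical axis, linear) of the 10 genes, ordered from left to right by the level from counts; points are means and bars the SD over 5 libraries, cut at 0, for double mutants and control siblings. For nanos3 and ddx4 the level from counts and the deposited FPKM lie close together, while piwil1, dazl and ca15b stand higher on the deposited scale.

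Genes of the same processes were examined in 5 lists, of which 43 lines were tested. The adjusted edgeR threshold was passed by 0 of the 43 without the block (0.00481% of all tested genes) and by 0 with it (0.255%). An unadjusted edgeR p under 0.05 was found for 0 of the 43 without the block (1.95% of all tested genes) and for 6 with it (10.5%), namely celf1, hmgcra, cdh1, cnot1, pum2 and pum3. DESeq2 and limma-voom also called 0.

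In the germ granule list (10 lines tested, 4 above 0 and 6 below, median log2 fold change -0.028), the smallest unadjusted p-values belonged to celf1 and igf2bp3, both RNA-binding proteins. Celf1 was at 124 ± 5.58 CPM in double mutants and 134 ± 9.39 CPM in control siblings (SD, n = 5 each; log2 fold change -0.10, adjusted edgeR p 1.00, and 0.316 with the block). Igf2bp3 was at 194 ± 9.09 and 200 ± 11.1 CPM (SD, n = 5 each; -0.048, adjusted edgeR p 1.00).

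Under the symbols as listed, the piRNA pathway list had 7 tested genes, 4 above 0 and 3 below, with a median of 0.10. The smallest unadjusted edgeR p-values of these 7 were those of henmt1 and tdrkh. Henmt1 is the methyltransferase that modifies the ends of piRNAs, and tdrkh a Tudor protein of piRNA trimming. The list symbol gtsf1 was not matched to a tested line written GTSF1. That line had a log2 fold change of 0.18 (unadjusted edgeR p 0.206, between 0.152 for henmt1 and 0.226 for tdrkh). With the block its adjusted edgeR p was 0.540. Henmt1 was at 0.560 ± 0.207 CPM in double mutants and 0.350 ± 0.218 CPM in control siblings (SD, n = 5 each; log2 fold change 0.64, SE 0.424, adjusted edgeR p 1.00). Tdrkh was at 9.41 ± 0.225 and 8.75 ± 0.591 CPM (SD, n = 5 each; 0.10, adjusted edgeR p 1.00). For the other Tudor genes of this list, tdrd5, tdrd9, tdrd12 and rnf17, the log2 fold changes lay between -0.40 and 0.13 and the adjusted edgeR p was 1.00 for each.

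The germ cell migration list (7 tested, 5 above 0 and 2 below, median 0.013) holds the chemokine receptor cxcr4b that guides germ cells, its ligand cxcl12a and their relatives. Cxcr4b was at 15.6 ± 4.02 CPM in double mutants and 16.2 ± 3.20 CPM in control siblings, and cxcl12a at 47.3 ± 2.95 and 46.9 ± 4.66 CPM (SD, n = 5 each; log2 fold changes -0.048 and 0.013, adjusted edgeR p 1.00 for both). The smallest unadjusted p-values were those of hmgcra, the enzyme of the mevalonate pathway needed for zebrafish germ cell migration, and of the adhesion gene cdh1. Hmgcra was at 5.62 ± 1.79 and 4.11 ± 1.55 CPM (SD, n = 5 each; 0.46, higher in 5 of 5 pairs, adjusted edgeR p 1.00, and 0.208 with the block). Cdh1 had a log2 fold change of 0.13 (adjusted edgeR p 1.00, and 0.383 with the block). Agreement of the pairs was not particular to hmgcra. Of the other list genes, dazap2 was higher in 5 of 5 pairs, and celf1, kif5ba and zp3b were lower in 5 of 5. The share over all tested genes was not counted.

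The oocyte and meiosis list (6 of 15 lines tested, 2 above 0 and 4 below, median -0.33) had its smallest unadjusted p-values in sycp3 and sycp1, components of the synaptonemal complex. Sycp3 was at 0.265 ± 0.124 CPM in double mutants and 0.429 ± 0.213 CPM in control siblings, and sycp1 at 0.349 ± 0.104 and 0.249 ± 0.125 CPM (SD, n = 5 each; log2 fold changes -0.69 and 0.47, adjusted edgeR p 1.00 for both). Summed over the 15 lines, the list stood between 5.09 and 6.29 CPM in double mutants and between 4.66 and 6.88 CPM in control siblings. Of the 5 oocyte markers, zp3b, zp2.1, gdf9 and bmp15 had counts in all 10 libraries, and figla was at 0 in 6 of 10. The largest mean level among the tested genes of the list was that of lhx8a, 2.48 CPM in double mutants and 2.30 CPM in control siblings. Low RNA of the listed genes was thus present in both groups. Which cells it came from, and its part in the germ line values, were not tested.

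In the list of RNA decay partners (13 tested, 6 above 0 and 7 below, median -0.0088), which holds the deadenylase subunits and Pumilio proteins that work with Nanos, the smallest unadjusted p-values were those of cnot1, the scaffold of the deadenylase complex, and pum2. Cnot1 was at 340 ± 25.2 CPM in double mutants and 366 ± 19.4 CPM in control siblings (SD, n = 5 each; log2 fold change -0.11, adjusted edgeR p 1.00, and 0.340 with the block). Pum2 was at 31.6 ± 7.30 and 36.7 ± 5.14 CPM (SD, n = 5 each; -0.22, adjusted edgeR p 1.00, and 0.133 with the block). The call of pum2 rested on which libraries were used: with the block and without number 4 its adjusted edgeR p was 0.0110. That fit called 365 of all 20750 genes it tested, and 1 of the 43 list lines.

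The genes whose log2 CPM followed ddx4 most closely over the 10 libraries were si:dkeyp-87e7.4, mylkb and frs3, with Pearson r of 0.948, 0.945 and 0.940. For nanos3 they were mia, ndufs1 and sypl2b, with 0.938, 0.929 and 0.922. These are the highest of 20801 genes over only 10 libraries, which share replicate numbers in pairs, and they describe these libraries alone. None of the germ line genes was among them. Between the members themselves, nanos3 correlated with piwil1 at 0.668 and with tdrd6 at 0.599, while ddx4 correlated with nanos3 at 0.281 and with tdrd1 at -0.437. Of the 10 genes, 9 could be placed in a gene table of the assembly GRCz12tu, and none of the 9 lies on a chromosome of rbpms2a or rbpms2b.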

How the data were processed

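RNA was measured in 5 double mutant and 5 control sibling pools. Per the labels' protocols, polyA RNA went into strand-specific libraries that were sequenced in pairs of 75 bases. Per the submitters' processing notes, STAR 2.5.3a, RSEM 1.3.0, BWA 0.7.12-r1039 and bedtools and the build GRCz10 were used, with no roles named. The authors deposited, per gene and library, an expected count and a log2 value, log2(FPKM + 0.1), with gene lengths. Whether counting used the strand is not given in the sources used here. Of zero counts, 77.4% stood beside an FPKM above 0.005, so the deposited FPKM is not the deposited count rescaled.

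Expected counts, rounded, entered edgeR 4.0.16 under R 4.3.3 (filterByExpr, TMM, robust quasi-likelihood, two-sided, BH over all tested genes), double mutants over control siblings; SE is the coefficient over the square root of F. Only the unblocked edgeR fit was tested on simulated data. These had the same spread for every gene and no pairs of libraries, unlike the data here. Alternatives used DESeq2 1.42.0 and limma 3.58.1, other scalings, no filter, FPKM, a replicate block and left-out libraries. Same-numbered libraries deviated together in all 5 pairs (r 0.543 to 0.598), so the numbers were read as pairs, although libraries with the numbers 2 and 3 did so nearly as strongly (0.497 and 0.508). Exact permutation tests used CPM. Intervals on counts cover counting error only.

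The members and lists were chosen with earlier results of these data known. Named genes were all members, the targeted genes, list genes past the adjusted threshold or else the 2 with the smallest p per list, and the 3 genes most like ddx4 and nanos3. Of the list symbols, 7 had no line under that symbol and hook2 had 2 lines. Symbols were matched with their capitals, so a tested line written GTSF1 was left out of the counts for gtsf1. Genes named beyond this rule were chosen after their values were seen.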

Additional observations from a re-analysis of the deposited data

Results flagged for a closer look

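A single library stood far from the other 4 of its group in 1 of 20 groups examined (10 genes in 2 groups), where chance gives about 1. It was nanos3 in double mutant library 1, at 1.59 CPM, where the next highest double mutant was at 0.730 CPM and the lowest at 0.419 CPM. The gap was 0.734 of the group's range, over the limit of 0.71 for 5 values. Control sibling library 1 was also the highest of its group, at 1.31 CPM.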

How the results depend on the processing

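No germ line gene passed the adjusted threshold in any alternative that tested it. Over all genes the count of calls was 1 in edgeR, 6 in DESeq2, 2 on log2(FPKM + 1) and 0 on log2(FPKM + 0.1) with limma-trend, and 0 to 3 when a single library was left out (0 without mutant 3 or control 2, 3 without control 6). With the replicate block it was 53 in edgeR, 90 in DESeq2 and 114 in edgeR without the filter, and 17, 17, 21, 365 and 79 without numbers 1, 2, 3, 4 and 6. The block changed the call of rbpms2a, which was lost again without number 1 (adjusted p 0.0693), and of no germ line gene. Of the list genes, 1 (pum2) was called with the block and without number 4, where 365 of 20750 tested genes were, and 0 otherwise. The log2 fold changes of nanos3, piwil1, tdrd6, ddx4, dazl and rbpms2b turned in sign under some alternatives. For nanos3 they were -0.036 with limma-voom, -0.036 with the replicate block in edgeR (-0.035 without the filter too) and -0.024 with it in DESeq2; they ran from -0.52 to 0.34 without single libraries, and with the block were -0.17, -0.12 and -0.20 without numbers 1, 2 and 6. Piwil1 was at -0.023 on log2(FPKM + 1) and -0.054 on log2(FPKM + 0.1), at -0.022 to 0.18 without single libraries, and with the block at -0.045 and -0.058 without numbers 2 and 6. Tdrd6 was at 0.017 with limma-voom, at -0.41 to 0.38 without single libraries, and with the block at 0.064 without number 2. Without single libraries ddx4 ran from -0.032 to 0.17, dazl from 0.060 to 0.56 and rbpms2b from -0.041 to 0.23. With the block ddx4 was at -0.013 without number 1 and dazl at -0.077 without number 3. Dnd1 passed the filter only when certain libraries were left out. Its log2 fold change then ran from -0.023 without control 6 to 0.25 without mutant 1. The cause was not tested. Of 10 ranks by level per length, 6 moved on the deposited FPKM. Mean CPM stayed within 1 SD for all 10 genes on total counts alone. It did so without single libraries too. In groups of this size, leaving out a single library cannot move the mean by 1 SD, whatever the values. The comparison without single libraries therefore shows nothing about stability. The mean of buc, whose SD is about as large as its mean, was 0.0228 CPM in double mutants without mutant 3 (0.0376 with it). In control siblings the mean of buc was 0.0262 CPM without control 3 (0.0511 with it). Depth limits dnd1, buc, ca15b and piwil2, of which sums of counts are compared.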

Other observations

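Among the oocyte genes, zp2.1, an egg coat protein gene, was highest in replicate number 1 of both groups, at 1.503 CPM in double mutant 1 and 2.38 CPM in control sibling 1, where nanos3, tdrd6 and ca15b were highest too. It was the 1 gene of the 15 in its list with this order, which 6.89% of all tested genes showed. In the germ granule list 1 of 12 lines had it (rbm46, with 5 counts in each group), and in the piRNA pathway list 0 of 10. The other double mutants were at 0.637, 0.226, 0.600 and 1.08 CPM for zp2.1. The other control siblings were at 0.832, 1.18, 0.508 and 0.828 CPM. Like nanos3 and tdrd6, zp2.1 in library 1 was thus at least 2 times the median of the others in both groups. Of all tested genes, 0.433% were. The counts of zp2.1 were not all whole numbers, so reads were shared with other loci and its level is uncertain. Lhx8a, a transcription factor gene, had the most counts of the oocyte and meiosis list (400 in double mutants and 357 in control siblings). It was highest in number 6 of both groups.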
